A study of Mus musculus with 2 samples.

Results

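The genes described here encode the subunits of the mitochondrial respiratory chain and the ATP synthase. They were taken by symbol: Nduf genes of the a, b, c, s and v series, the 4 Sdh genes, Uqcr genes, Cox4 to Cox8 genes, Atp5 genes, and the protein-coding genes of the mitochondrial genome, with pseudogene symbols left out. The rule found 97 genes among 32286 measured features. Of these, 84 lie on nuclear chromosomes: 37 in complex I, 4 in complex II, 8 in complex III, 18 in complex IV and 17 in complex V. Complexes were assigned by symbol alone. Every Nduf gene, including Ndufa4 and Ndufa4l2, was therefore counted in complex I, whichever complex its protein belongs to. The other 13 lie on the mitochondrial genome: 7 in complex I, 1 in complex III, 3 in complex IV and 2 in complex V. Complex II has no mitochondrial gene.

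The chain passes electrons from NADH (complex I) and succinate (complex II) through complex III to oxygen at complex IV, and the proton gradient built on the way drives the ATP synthase, complex V. Most subunits are translated in the cytosol from nuclear genes and imported, while the hydrophobic core subunits are transcribed and translated inside the organelle, so 2 genomes must both supply each complex except II. MYC is known as a transcription factor of growth and ribosome biogenesis genes, and nuclear genes for mitochondrial proteins are among its described targets. Mature neutrophils are known for relying little on mitochondrial respiration, and maturing erythroid cells for shedding their mitochondria.

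Primary hematopoietic cells from mouse bone marrow were sequenced cell by cell in droplets, reading transcript 3′ ends, with 1 library per genotype. The control carries the interferon-inducible Mx1Cre transgene on 1 allele (Mx1Cre+/-) and an unaltered Rosa26 locus (Rosa26+/+). The MYC library comes from Mx1Cre+/-;Rosa26LSL-MYC/LSL-MYC, in which both Rosa26 alleles hold MYC downstream of a Cre-excisable stop cassette (LSL). The series asks what MYC overexpression, directed at hematopoietic stem cells, does to marrow transcriptomes. Mx1Cre, carried by both groups, is not restricted to stem cells, and the labels used here give neither the number of animals, their age, nor the induction. Genotype and library cannot be told apart with 1 library each, so no test was run. Unless stated otherwise, every interval below is a 95% interval of the UMI counts (unique molecular identifiers, 1 per captured transcript molecule) that covers counting error only.

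After filters, 15143 control cells with 124339889 UMIs (median 5384 per cell) and 12685 cells of the MYC library with 103134669 UMIs (median 6029) were kept, and 97 barcodes occurred in both libraries. A feature named MYC drew 301 UMIs from cells of the MYC library, or 2.92 counts per 1000000 UMIs (CPM), and 0 from control cells. Of the 301, 154 were in mature neutrophils (9.66 CPM). Granulocyte progenitors had 0.67 CPM, stem or multipotent progenitors 0.86 CPM and early erythroid cells 1.02 CPM, while plasmacytoid dendritic cells and mature B cells had 0 UMIs. Cells fell into classes named after known markers, each of which is a cluster or group of clusters that resembles the named type. The members were left out of the genes used for clustering. At least 50 cells per library were available in 15 classes, and at least 200 in 6: stem or multipotent progenitors, granulocyte progenitors, immature neutrophils, mature neutrophils, monocytes and early erythroid cells, which carry most of the account below. Macrophages (21 against 654 cells) and B progenitors (512 against 18 cells) were not compared. S100a8, which encodes an abundant calcium-binding protein of neutrophils, was present at 5495 and 5862 CPM even in mature B cells, so some UMIs in each class came from RNA of other cells.

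Of the 97 members, 93 had at least 100 UMIs over both libraries. The remaining 4 were all nuclear paralogs with tissue-restricted expression: Cox7b2 and Cox8b had 0 UMIs in both libraries, Cox8c had 2 and 2, and Ndufa4l2 had 12 and 7.

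In the control library, the cell classes differed several-fold in how much of their RNA came from the chain, and the 2 genomes did not move in step. Transcripts of the 13 mitochondrial genes made up 5.12% of UMIs in stem or multipotent progenitors, 5.05% in plasmacytoid dendritic cells, 5.03% in granulocyte progenitors and 4.87% in mature B cells, but 1.11% in late erythroid cells and 0.858% in mature neutrophils. The nuclear members made up 2.20% in granulocyte progenitors and 2.18% in stem or multipotent progenitors, and only 0.959% in mature B cells, 0.651% in mature neutrophils and 0.434% in late erythroid cells. Mature B cells therefore had 5.08 mitochondrial UMIs per nuclear member UMI, against 2.35 in stem or multipotent progenitors, 1.5 in immature neutrophils and 1.32 in mature neutrophils. The highest ratios were those of lymphoid and plasmacytoid dendritic classes, with 3.91 in both plasmacytoid dendritic cells and T or NK cells and 3.23 in plasma cells. The order of the 15 classes in this ratio was nearly the same in the MYC library (Spearman's rho 0.936 across classes, which share a library and are not replicates).

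**Figure D1:**
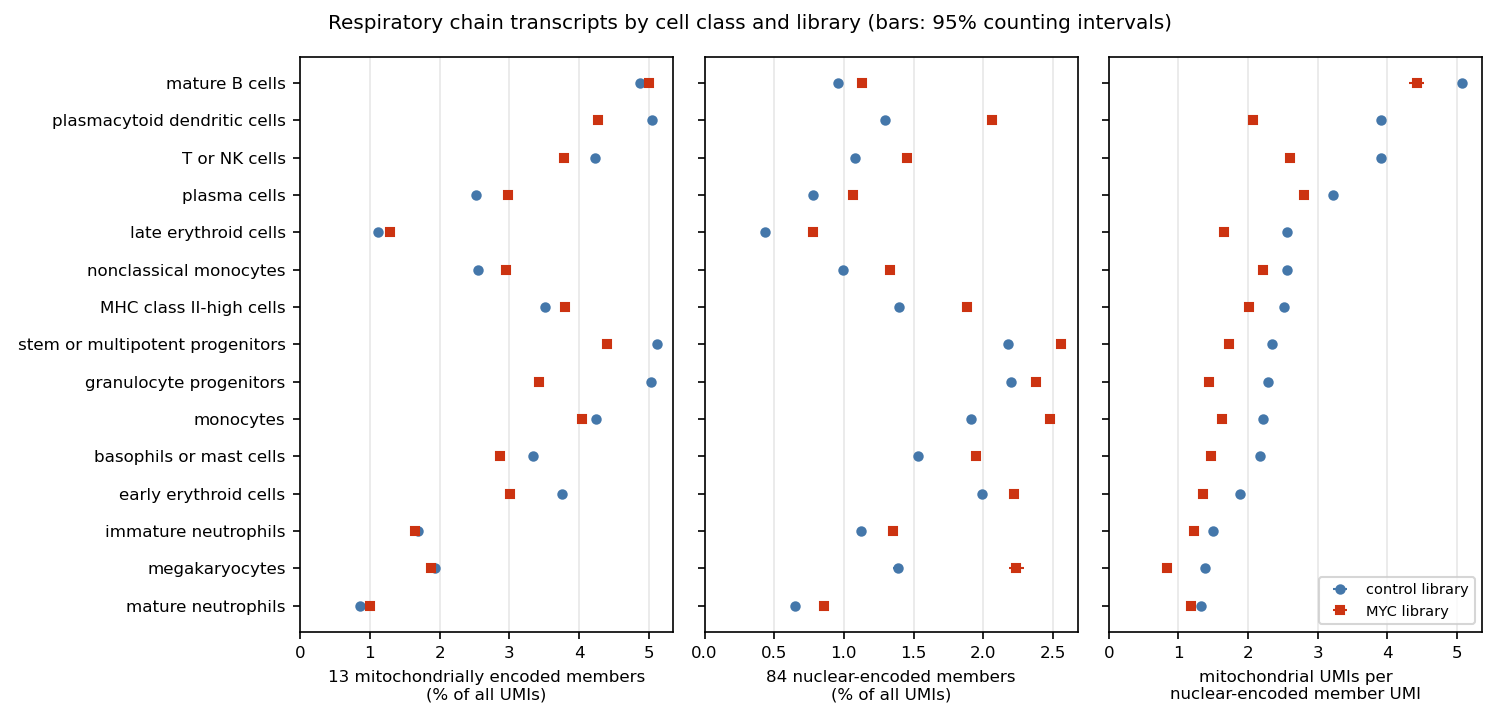
Share of UMIs from the 13 mitochondrial members (left, percent), from the 84 nuclear members (middle, percent) and the number of mitochondrial UMIs per nuclear member UMI (right) in 15 cell classes; circles are the control library, squares the MYC library, bars 95% counting intervals, mostly smaller than the symbols. The nuclear share lies to the right in the MYC library and the ratio to the left in all 15 classes, while the mitochondrial share moves either way.

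With UMIs summed over the cells of a class, the MYC library had a larger share of nuclear member transcripts and fewer mitochondrial UMIs per nuclear member UMI in each of the 15 classes. The nuclear share was higher by 0.11 (granulocyte progenitors) to 0.84 (late erythroid cells) on the log2 scale, and the ratio was lower, with log2 changes from -0.92 in plasmacytoid dendritic cells (3.91 to 2.07) to -0.16 in mature neutrophils (1.32 to 1.18). Taken as the median over single cells, the ratio was lower in 14 classes and the nuclear share higher in 13. In mature neutrophils the median cell had a ratio of 1.05 in the control and 1.02 in the other library, a log2 change of -0.040. The exception in the ratio was megakaryocytes, with medians of 0.444 and 1.22, the opposite direction to their summed ratio, and the exceptions in the nuclear share were megakaryocytes (1.38% and 1.34%) and early erythroid cells (1.40% and 1.30%). The mitochondrial share itself was lower in 9 classes and higher in 6. In granulocyte progenitors it was 5.03% against 3.43%, with nuclear shares of 2.20% and 2.38%, so that the ratio went from 2.28 to 1.44 (log2 change -0.67, interval -0.68 to -0.66). In monocytes the mitochondrial shares were close, 4.24% and 4.05%, and the nuclear shares were 1.91% and 2.48%. Mature neutrophils had higher shares from both genomes, 0.858% and 1.01% mitochondrial and 0.651% and 0.856% nuclear. The filter that removed cells with 10% or more mitochondrial UMIs acts on these same 13 genes, and it removed 8.64% of control barcodes and 11.0% of the MYC library. Without it, the change of the ratio in monocytes was -0.21 in place of -0.44 and in early erythroid cells -0.30 in place of -0.47, while in mature neutrophils it was deeper, -0.29 in place of -0.16.

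The clusters within a class give the same comparison with fewer differences in composition. In the mature neutrophils, cluster 0 held 48.6% of control cells but 7.42% of the MYC library, and cluster 1 held 14.4% and 64.8%. The ratio was lower in the MYC library in cluster 1 (1.26 and 1.16) and cluster 7 (1.38 and 1.17) but higher in cluster 0 (1.26 and 1.45), the only cluster of the 6 larger classes in which it was. In both early erythroid clusters the nuclear share was alike in the 2 libraries, 1.86% and 1.85% in cluster 13 and 2.71% and 2.73% in cluster 14, and only the mitochondrial share was lower, 3.60% and 2.39%, and 4.62% and 3.88%. Cluster 14, the cluster with the higher nuclear share, held 12.3% of control and 19.0% of MYC library early erythroid cells.

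Other abundant RNAs moved with these shares. The percentage of UMIs from cytosolic ribosomal protein genes was higher in the MYC library in all 15 classes, for example 14.0% and 22.4% in monocytes. Malat1, an abundant nuclear noncoding RNA, and Gm42418, a feature that overlaps ribosomal RNA, were lower in all 15, in monocytes 7974 and 5020 CPM for Malat1 and 150667 and 72541 CPM for Gm42418. The part of Malat1 in the results was not tested, and counts with ribosomal protein genes or Gm42418 left out of the denominator are given below. The ratio of mitochondrial to nuclear UMIs does not contain them, whereas each gene's CPM has them in its denominator.

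Gene by gene, a member was called lower in the MYC library where its CPM there was at most 0.8 of that in the control, and higher where the control CPM was at most 0.8 of that in the MYC library, among genes with at least 100 UMIs over both libraries in the class. Log2 ratios were taken after adding 1 CPM. In mature neutrophils 47 of 77 nuclear members were called higher, where 14.7% of all 8067 genes tested were, and 2 were called lower, where 41.6% were. In monocytes 51 of 78 were called higher (background 20.1%) and 1 lower (35.4%), in immature neutrophils 36 of 77 (15.6%) and 3 (40.8%), and in stem or multipotent progenitors 35 of 78 (16.1%) and 4 (32.2%). Granulocyte progenitors had 25 of 77 higher (13.7%) and 6 lower (46.4%). In early erythroid cells 31 of 77 were higher (22.7%) and 7 lower (31.7%), but within clusters 13 and 14 the counts were 15 of 77 and 17 of 77, against backgrounds of 12.9% and 13.4%. With the mean of each cell's CPM in place of summed UMIs, 22 of 77 were higher in early erythroid cells, below the 35.1% of all genes, and the median log2 ratio was 0.105 for nuclear members and for all genes alike. With Gm42418 left out of the denominator, the counts were 22 of 78 in stem or multipotent progenitors, where 11.5% of all genes were then higher, 37 of 78 in monocytes (14.0%) and 17 of 77 in early erythroid cells (16.0%). With ribosomal protein genes left out it was 63 of 78 in monocytes (27.6% of all genes) and 42 of 77 in early erythroid cells (33.5%). With finer clusters (Leiden resolution 2) the count in stem or multipotent progenitors was 18 of 77, against 15.4% of all genes. With median-of-ratios scaling, which sets the median of all genes to 0, it was 43 of 77 in granulocyte progenitors (27.1% of all genes) and 57 of 77 in immature neutrophils (25.8%).

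Within single clusters of the other classes, more members were called higher than the background throughout. The mature neutrophil clusters 0, 1 and 7 had 47 of 72 (18.5%), 60 of 76 (23.4%) and 50 of 76 (15.5%), and the immature neutrophil clusters 4, 5 and 6 had 29 of 77 (14.8%), 33 of 73 (19.3%) and 39 of 77 (14.1%). Monocyte clusters 10 and 15 had 58 of 77 (24.9%) and 39 of 78 (17.1%).

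The 9 smaller classes gave similar counts from fewer cells. Among the lymphoid classes, T or NK cells had 48 of 76 nuclear members called higher (background 20.7%) and 3 lower (30%), mature B cells 30 of 76 (13.4%) and 6 (47.6%), and plasma cells 46 of 77 (29.4%) and 4 (31.9%). Plasmacytoid dendritic cells had 64 of 76 higher (30.1%) and 1 lower (34.1%), MHC class II-high cells 51 of 76 (25.4%) and 3 (32.2%), nonclassical monocytes 35 of 52 (24.5%) and 2 (33.7%), and basophils or mast cells 44 of 76 (21.3%) and 2 (36.5%). Late erythroid cells had 40 of 47 higher (44.9%) and 0 lower (28.8%), and megakaryocytes 38 of 45 (37.7%) and 1 (43.8%). In both, other RNAs moved with these counts: S100a8 had 14670 and 19135 CPM in late erythroid cells and 10406 and 19196 CPM in megakaryocytes, and Malat1 had 16433 and 12436 CPM and 27097 and 2447 CPM. Their part in these counts was not tested.

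The median log2 ratio of the nuclear members was 0.44 in monocytes, 0.43 in mature neutrophils, 0.30 in immature neutrophils, 0.26 in stem or multipotent progenitors, 0.24 in early erythroid cells and 0.10 in granulocyte progenitors. The median of all genes tested lay below 0 in each of these classes, from -0.27 in granulocyte progenitors to -0.08 in early erythroid cells, and 70 of 77 nuclear members in granulocyte progenitors lay above it. For the 13 mitochondrial members the medians were -0.82 in granulocyte progenitors, -0.66 in early erythroid cells, -0.52 in stem or multipotent progenitors, -0.33 in monocytes, -0.20 in immature neutrophils and 0.11 in mature neutrophils. The last 2 cross 0 under other scalings or filters. Only 1 of the 13 lay above the all-gene median in granulocyte progenitors, and 11 of 13 did in mature neutrophils.

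**Figure D2:**
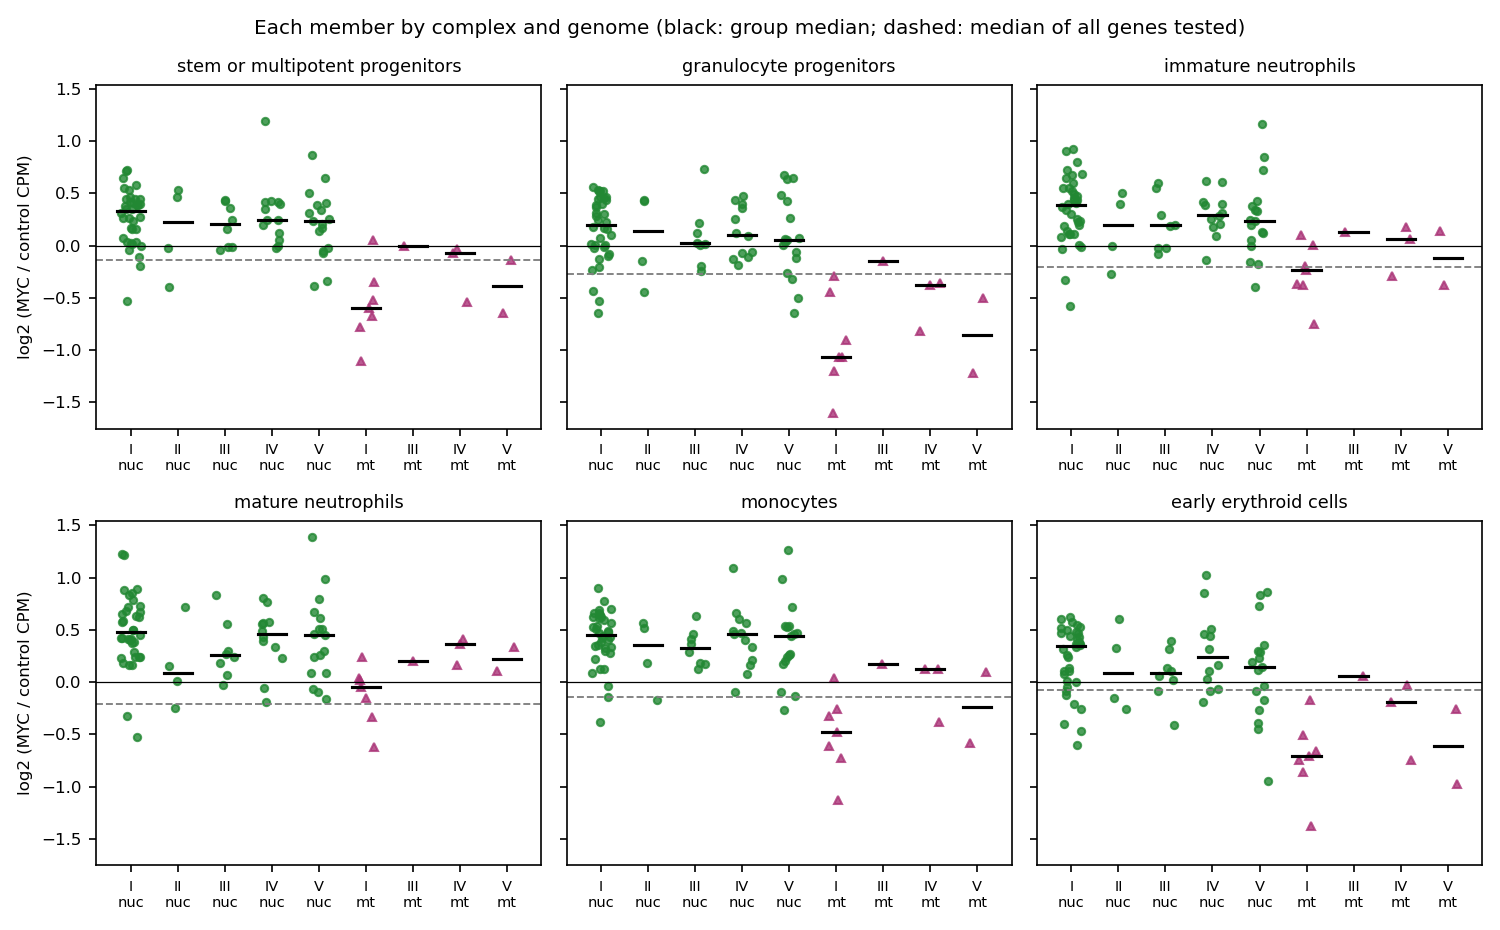
Log2 ratio of MYC to control CPM (y axis) of each member with at least 100 UMIs, by complex and genome (nuc, nuclear; mt, mitochondrial), in 6 classes; black bars are group medians and dashed lines the median of all genes tested. The nuclear medians of complex I are above 0 in all 6 classes (0.20 to 0.48), and most of its mitochondrial points lie below.

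Over the 6 larger classes, 77 nuclear members and 6734 genes were tested in all. Of the members, 45 were above 0 in every class (17.6% of all genes) and 5 below 0 in every class (38.5%) (Ndufs1, Ndufa3, Sdha, Atp5k and Atp5mpl). With median-of-ratios scaling some of these values were above 0, among them Atp5k in mature neutrophils and Atp5mpl in immature and mature neutrophils. In all 6 classes 19 were called higher (5.64% of all genes): Ndufa8, Ndufa11, Ndufa12, Ndufb5, Ndufb8, Ndufb9, Ndufc2, Ndufs3, Ndufs8 and Ndufv2 of complex I, Sdhb of complex II, Uqcrfs1 of complex III, Cox5b, Cox7a2l and Cox8a of complex IV, and Atp5c1, Atp5d, Atp5g1 and Atp5g2 of complex V. The list depends on the denominator and the clusters, a count added after seeing the data. With Gm42418 left out, 9 were called higher in all 6 classes (3.77% of all genes), namely Ndufa8, Ndufa12, Ndufc2, Ndufs3, Ndufs8, Sdhb, Cox5b, Atp5d and Atp5g1. With Leiden resolution 2 there were 15 (5.92%), of which 11 were among the 19. Ndufa3 alone was called lower in all 6 (10.6% of all genes), though not with median-of-ratios scaling or with ribosomal protein genes left out, and 20 were called higher in none (67.0%). Subunits of the same complex differed in direction.

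Complex I is the entry point for electrons from NADH. Its 7 nuclear core subunits, which carry the flavin and the iron-sulfur clusters, had medians of 0.34 (immature neutrophils) to 0.63 (monocytes). Called higher were 6 in monocytes (20.1% of all genes), 5 in stem or multipotent progenitors (16.1%) and 5 in granulocyte progenitors (13.7%). In immature neutrophils (15.6%), mature neutrophils (14.7%) and early erythroid cells (22.7%) 4 were. At most 1 was called lower in a class, where 31.7% to 46.4% of all genes were. In each of the 6 classes 6 of the 7 were above 0, and the share of all genes above 0 in every class is given above. The exception, Ndufs1, the largest core subunit, had 44.7 CPM in control granulocyte progenitors and 30.7 in the MYC library, and 75.1 and 49.2 CPM in early erythroid cells. Its core partner Ndufs3 had 49.0 and 72.8 CPM in the granulocyte progenitors. The widest differences were in accessory subunits of mature neutrophils, where Ndufa8 had 50.4 and 119 CPM (ratio interval 2.18 to 2.58) and Ndufa11 25.9 and 61.5 CPM. Ndufa12 had 79.6 and 150.1 CPM in monocytes and 28.5 and 54.9 CPM in immature neutrophils. Of the 10 Ndufb genes, subunits of the membrane arm, 8 were called higher in monocytes (20.1% of all genes), immature neutrophils (15.6%) and mature neutrophils (14.7%). In stem or multipotent progenitors 6 were (16.1%), in early erythroid cells 6 (22.7%) and in granulocyte progenitors 4 (13.7%), and none was called lower in any, where 31.7% to 46.4% of all genes were. Ndufa3, another membrane arm subunit, ran the other way, with 305 and 195 CPM in granulocyte progenitors and 196 and 135 CPM in mature neutrophils.

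Complex II oxidizes succinate and is also an enzyme of the citric acid cycle. Its subunits diverged: Sdhb, the iron-sulfur subunit, was called higher in all 6 classes, with 88.0 and 128 CPM in stem or multipotent progenitors, while Sdha, the flavoprotein that binds succinate, had 144 and 109 CPM there. Of the membrane anchors, Sdhd had 88.7 and 123 CPM and Sdhc 76.0 and 74.8 CPM in the same class.

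In complex III, Uqcrfs1, the Rieske iron-sulfur subunit, had 78.9 and 132 CPM in granulocyte progenitors (ratio interval 1.53 to 1.83). None of the other 7 nuclear subunits was called higher there, where 13.7% of all genes were, which for 7 genes is near that share. Uqcr11, a small subunit, had 441 and 372 CPM there, and 486 and 365 CPM in early erythroid cells, where it was called lower. The core subunit Uqcrc2 had nearly the same level in both libraries of every larger class, with log2 ratios from -0.08 to 0.14. In mature neutrophils the largest nuclear ratio of the complex was that of Uqcrb, with 38.1 and 68.5 CPM.

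Complex IV reduces oxygen. Its structural subunit Cox5b had 99.6 and 175 CPM in mature neutrophils (log2 ratio 0.81) and 197 and 304 CPM in immature neutrophils. Cox8a had 612 and 908 CPM in monocytes, and Cox7a2l, known for joining complexes III and IV into supercomplexes, 125 and 227 CPM in early erythroid cells. Cox6a1 had log2 ratios from -0.19 to 0.21 over the 6 larger classes, with 166 and 146 CPM in mature neutrophils, and Cox7c had 889 and 781 CPM in granulocyte progenitors. Of the 12 or 13 nuclear complex IV members tested in each of the 6 classes none was called lower, where 31.7% to 46.4% of all genes were.

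The nuclear members of complex V differed among themselves, also within one part of the enzyme. Atp5d, the delta subunit of the rotor stalk, had 202 and 323 CPM in granulocyte progenitors and 42.9 and 85.9 CPM in mature neutrophils, and Atp5c1, the gamma subunit it binds, was also called higher in all 6 classes, while Atp5e, the epsilon subunit of the same stalk, had 809 and 745 CPM in granulocyte progenitors. Of the catalytic head subunits, Atp5a1 (alpha) had 356 and 298 CPM in granulocyte progenitors and 378 and 428 CPM in monocytes. Atp5b (beta) had 421 and 404 CPM in granulocyte progenitors, 639 and 752 CPM in early erythroid cells, and 394 and 572 CPM in monocytes, the only larger class where it was called higher. The 4 subunits of the peripheral stalk were above 0 in every larger class (the share of all genes that were is given above). The number called higher ran from 4 in mature neutrophils (14.7% of all genes) to 0 in early erythroid cells (22.7%). Of the 5 small membrane subunits, which include those that hold ATP synthase dimers together, none was called higher in any of these classes. For 5 genes this is near the 13.7% to 22.7% of all genes. Called lower were 3 in early erythroid cells (31.7% of all genes), 2 in stem or multipotent progenitors (32.2%), 2 in granulocyte progenitors (46.4%) and 1 in immature neutrophils (40.8%). In mature neutrophils (41.6%) and monocytes (35.4%) 0 were. Atp5k (subunit e) had 467 and 242 CPM in early erythroid cells (ratio interval 0.49 to 0.55) and Atp5mpl had 309 and 248 CPM in granulocyte progenitors.

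The rotor ring of complex V is built from the c subunit, which 3 nuclear genes encode as the same mature protein behind different import sequences. Atp5g1 and Atp5g2 differed between the libraries while Atp5g3 differed little in several classes, so 30 bases around the motif matches in their promoters are shown. These are RefSeq sequences of the GRCm38.p6 build, all on the minus strand, written 5′ to 3′, with the match in capitals.
Atp5g1, chr11:96075658-96075687: agggactccgaaCACGTGggtgggggagct
Atp5g2, chr15:102671070-102671099: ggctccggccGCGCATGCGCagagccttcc
Atp5g3, chr2:73911295-73911324: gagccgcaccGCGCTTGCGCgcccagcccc
Atp5g3, chr2:73911547-73911576: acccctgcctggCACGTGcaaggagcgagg
CACGTG is the E-box, the core motif that MYC and related factors bind, and the NRF1 motif, searched as GCGCA and GCGC with any 1 base between them, is that of a regulator of nuclear genes for respiration; both strands were searched from 250 bases before to 50 after each annotated start. The Atp5g1 E-box begins 44 bases before the start and that of Atp5g3 238 before, the Atp5g2 NRF1 match 42 before and that of Atp5g3 at position 13 after it. A promoter was listed for 67 of the 84 nuclear members. The E-box was in 6 of their 72 promoters (8.33%; Atp5g1, Atp5g3, Atp5l, Ndufa7 and Ndufv1), close to its share of 7.15% of all 32851 promoters. The NRF1 motif was in 18 of the 72 and in 4.60% of all, and CCGGAAG, the ETS motif, in 17 of the 72 (23.6%) and in 8.86% of all. A match is a description of these letters and shows no binding.

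Atp5g1 varied 23.7-fold between classes in the control and 15.6-fold in the MYC library. In the control it ran from 15.2 CPM in mature neutrophils to 359.5 CPM in granulocyte progenitors, and in the MYC library from 41.5 CPM to 648 CPM in stem or multipotent progenitors. It was called higher in the MYC library in each larger class: 354 and 648 CPM in stem or multipotent progenitors, 359.5 and 560.0 in granulocyte progenitors, 53.6 and 122 in immature neutrophils, 15.2 and 41.5 in mature neutrophils, 169.9 and 409 in monocytes, and 316 and 576 in early erythroid cells. The ratio interval in mature neutrophils was 2.36 to 3.18. Atp5g1 was also higher in each cluster of the classes made of several, with log2 ratios of 1.49 to 1.70 in the 3 mature neutrophil clusters and of 0.38 and 0.45 in the early erythroid ones. Atp5g2 had 443 and 696 CPM in granulocyte progenitors and 346 and 569 CPM in monocytes; in early erythroid cells its 252 and 450 CPM came with 192 and 197 CPM in cluster 13 and 573 and 800.1 CPM in cluster 14. Atp5g3 differed less: 249 and 255 CPM in granulocyte progenitors, 122 and 126 in immature neutrophils, 324 and 306 in early erythroid cells, and 206 and 285 in monocytes. Atp5g1 therefore supplied a larger part of c subunit UMIs in the MYC library, for example 23.5% and 32.4% in monocytes, 14.1% and 23.2% in mature neutrophils and 35.4% and 43.2% in early erythroid cells.

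The 13 mitochondrial genes are transcribed as long polycistronic RNAs that are cut into single messengers, yet their differences between the libraries were unequal. The lowest was a complex I gene: mt-Nd4l was below 0 in all 14 classes in which it was tested, with a median log2 ratio of -1.07 and a range of -1.60 to -0.22, and mt-Nd4 in all 15, with a median of -0.52, although mt-Nd4 in mature neutrophils was above 0 with median-of-ratios scaling. Next was mt-Atp8, of complex V, with a median of -0.61 over 14 classes (below 0 in 12) and 551 and 236 CPM in granulocyte progenitors. Medians over classes were -0.52 for mt-Nd5, -0.48 for mt-Nd3 and -0.33 for mt-Nd2. By contrast, mt-Cytb, mt-Co2, mt-Co3, mt-Atp6 and mt-Nd1 had medians of 0.13, 0.11, 0.12, 0.10 and 0.05. Complex I was thus not uniform, since mt-Nd1, with 2405 and 2496 CPM in stem or multipotent progenitors, is one of its core subunits. The sparse mt-Nd6, encoded on the opposite strand to the other 12, had a median of -0.19 over 12 classes, with 74.9 and 52.0 CPM in stem or multipotent progenitors and 10.7 and 11.0 CPM in mature neutrophils. The transcript of mt-Co1, the catalytic subunit of complex IV, sat between, with a median of -0.30.

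In the larger classes, mt-Nd4l had 550 and 256 CPM in stem or multipotent progenitors, 675 and 222 in granulocyte progenitors, 142 and 84.1 in immature neutrophils, 60.1 and 38.7 in mature neutrophils, 414 and 188 in monocytes and 314 and 120.2 in early erythroid cells, and it was called lower in each. It was lower within each of their 10 clusters too, from -1.90 in cluster 13 to -0.24 in cluster 0. For mt-Cytb, the complex III core subunit, the levels were 4445 and 4426, 4186 and 3788, 979 and 1071, 536 and 619, 2945 and 3331, and 2743 and 2858 CPM in the same order. mt-Co1 had 9107 and 6274 CPM in stem or multipotent progenitors, 9128 and 5174 in granulocyte progenitors and 2455 and 2748 in mature neutrophils. Of the 13 genes, 11 were called lower in granulocyte progenitors (46.4% of all genes), 8 in stem or multipotent progenitors (32.2%), 8 in early erythroid cells (31.7%) and 7 in monocytes (35.4%). In immature neutrophils 4 were (40.8%), and in mature neutrophils 2 were (41.6%) and 3 were called higher (14.7%), so that in these classes members were called lower no more often than genes at large. In the other larger classes none was called higher, where 13.7% to 22.7% of all genes were.

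**Figure D3:**
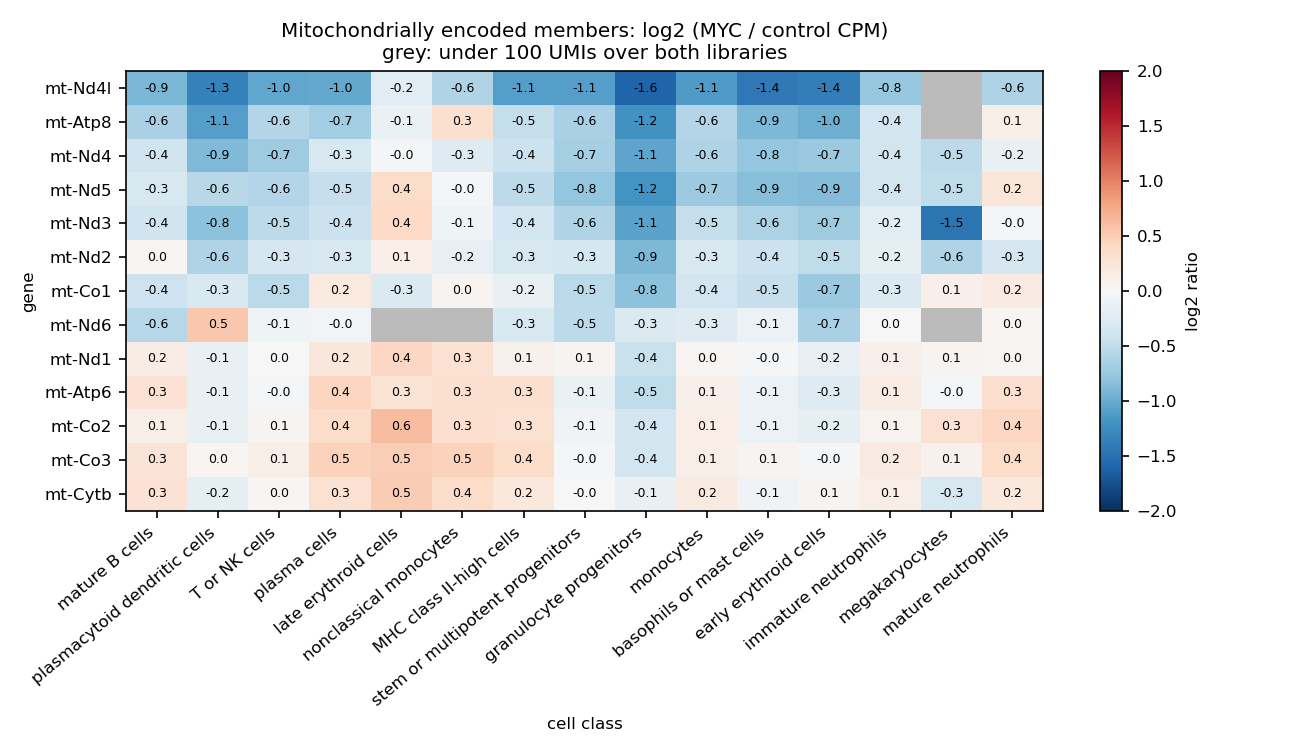
Log2 ratio of MYC to control CPM of the 13 mitochondrial genes (rows) in 15 cell classes (columns), with blue lower and red higher in the MYC library and grey for under 100 UMIs. The upper rows, mt-Nd4l, mt-Atp8, mt-Nd4, mt-Nd5 and mt-Nd3, are mostly blue, and granulocyte progenitors are blue in every row.

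Neighbouring genes on this genome overlap, and counting at transcript 3′ ends may split such pairs. mt-Nd4l (chrM:9877-10173, GRCm38, protein coding) shares its last bases with mt-Nd4 (chrM:10167-11544), and mt-Atp8 (chrM:7766-7969) with mt-Atp6 (chrM:7927-8607); each pair is made as 1 messenger, so levels of the single genes in a pair are uncertain. In granulocyte progenitors there were 0.202 and 0.138 mt-Nd4l UMIs per mt-Nd4 UMI, and 0.0615 and 0.0373 mt-Atp8 UMIs per mt-Atp6 UMI. The mt-Nd4l share of its pair was lower in all 15 classes, and that of mt-Atp8 in all but nonclassical monocytes (0.0565 and 0.0568).

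Set against the nuclear members of the same complex, as assigned by symbol, the shortfall of mitochondrial UMIs was deepest in complex I in each of the 6 larger classes. It was least in complex III in all of these but mature neutrophils, where it was least in complex V. In granulocyte progenitors the ratio went from 1.42 to 0.691 in complex I (log2 change -1.04), from 4.73 to 3.02 in complex IV (-0.65), from 1.42 to 0.912 in complex V (-0.64), and from 1.90 to 1.67 in complex III (-0.19). In mature neutrophils complex I went from 0.657 to 0.434 (-0.60), complex IV from 3.06 to 2.78 (-0.14), complex III from 0.909 to 0.863 (-0.07), and complex V stayed at 0.705 and 0.703. Complex III in early erythroid cells, with a log2 change of 0.06, was the only case in the 6 classes in which the ratio was higher in the MYC library.

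Some subunits have paralogs known from particular tissues, and the levels of a few of these differed widely between marrow classes. Cox6a2, known as the form of heart and skeletal muscle, had 741 CPM in control plasmacytoid dendritic cells and 1206 CPM in the MYC library. It was detected in 243 of 257 control cells (94.6%, Clopper-Pearson interval 91.0 to 97.0) with a median of 8729 UMIs and in 53 of 59 cells of the MYC library (89.8%, 79.2 to 96.2). Early erythroid cells, with a median of 12974 UMIs in the control, had it in 14 of 1221 cells (1.15%). In the other compared classes its level was at most 35.2 CPM (plasma cells, MYC library). The ubiquitous Cox6a1 lay between 146 and 564 CPM in the 6 larger classes. In stem or multipotent progenitors Cox6a2 had 8.53 and 20.7 CPM, but with finer clusters (Leiden resolution 2) the log2 ratio was -0.57 in place of 1.19.

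Cox6b2, known as the testis form of Cox6b, had its highest level in early erythroid cells, 113 and 232 CPM. Granulocyte progenitors (45.0 and 42.9 CPM) and stem or multipotent progenitors (36.8 and 36.1 CPM) came next in the control, while in the MYC library late erythroid cells (19.1 and 44.3 CPM, from 32 and 28 UMIs) lay level with them. It was higher in the MYC library in both early erythroid clusters, with log2 ratios of 0.73 in cluster 13 and 0.85 in cluster 14. The share of early erythroid cells with a UMI was 52.0% against 53.8%, at median depths of 12974 and 11347 UMIs, while it was 1.81% in control mature neutrophils with a median of 3864.5 UMIs. In control stem or multipotent progenitors the share was 55.5% at a median of 23140 UMIs and in granulocyte progenitors 50.4% at 19374 UMIs, so this share, at these unequal depths, did not set early erythroid cells apart. The ubiquitous Cox6b1 had 427 and 479 CPM in early erythroid cells. Cox4i2, known from lung, was sparse: its highest level was in plasma cells, with 14 UMIs (2.78 CPM) and 47 UMIs (26.7 CPM), where Cox4i1 is the common form. Cox7a1, a muscle form, had at most 26 UMIs in any class and library.

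**Figure D4:**
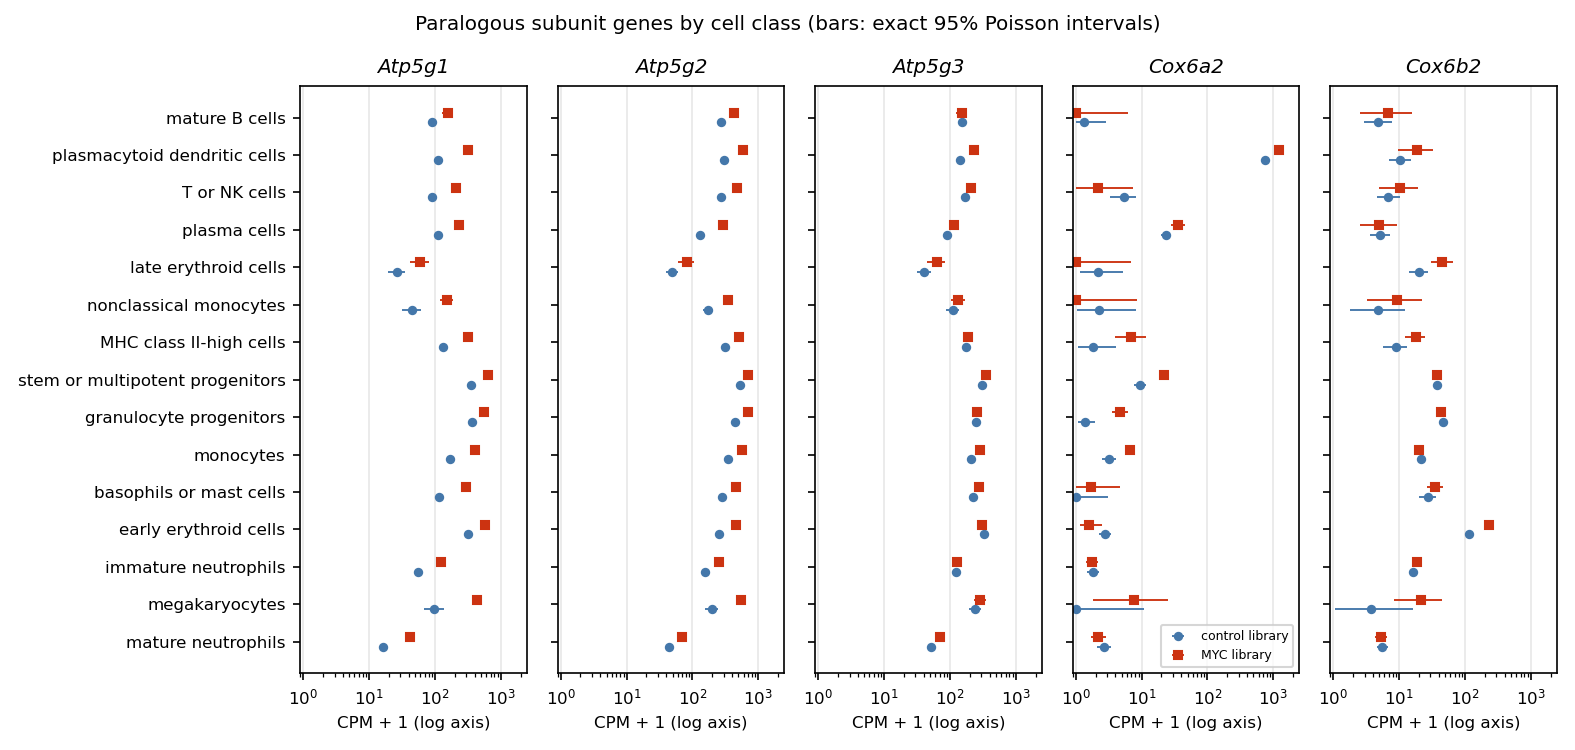
Level (CPM + 1, log axis) of the 3 c subunit genes, Cox6a2 and Cox6b2 in 15 cell classes; circles are the control and squares the MYC library, bars exact 95% Poisson intervals. Atp5g1 lies to the right in the MYC library throughout, Cox6a2 stands out in plasmacytoid dendritic cells (741 and 1206 CPM) and Cox6b2 in early erythroid cells (113 and 232 CPM).

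Between the first and the last stage of the neutrophil lineage every tested member had a lower level, but not at each step. Atp5l, for example, had 305 CPM in immature and 345 CPM in mature neutrophils of the control, and 349 and 366 CPM in the MYC library. From granulocyte progenitors to mature neutrophils of the control, all 77 nuclear members and all 13 mitochondrial members were called lower in the later stage by the same 0.8 threshold, where 59.4% of all genes tested were. The median log2 differences were -1.85 for nuclear and -2.91 for mitochondrial members, against -0.76 for all genes. In the MYC library all 77 and all 13 were lower as well (background 56.8%), with medians of -1.56, -1.92 and -0.62. In the control, Atp5g1 had the largest difference (359.5 to 15.2 CPM, -4.48) and Sdhb the smallest (54.3 to 35.0 CPM, -0.62). The same 2 genes were at the ends in the MYC library, Atp5g1 at -3.72 and Sdhb at -0.33. By stage, 74 of 77 nuclear members were lower in immature neutrophils than in granulocyte progenitors of the control (background 55%, median -0.99) and 70 in the MYC library (51.6%, -0.82). From immature to mature neutrophils 68 were lower among control cells (48.4%, -0.85) and 63 in the MYC library (47.7%, -0.73).

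**Figure D5:**
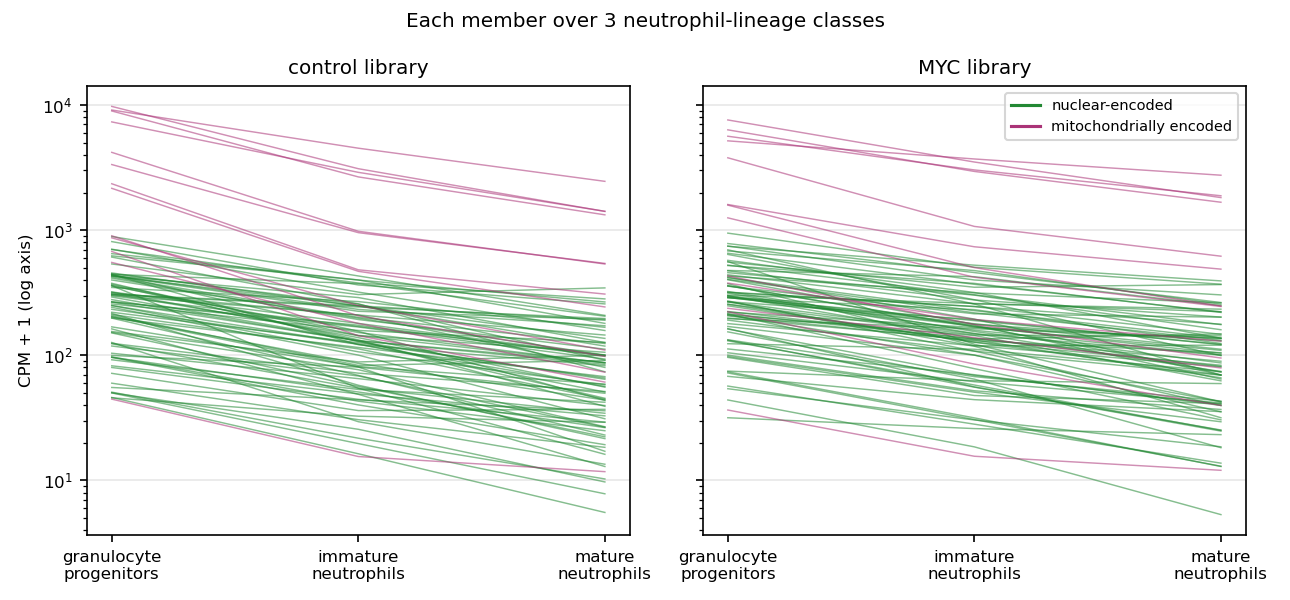
Level (CPM + 1, log axis) of each member in granulocyte progenitors, immature neutrophils and mature neutrophils of the control (left) and MYC library (right), with green for nuclear and purple for mitochondrial genes. All lines end lower than they start, and the purple lines drop more steeply in the control, where the mitochondrial median is -2.91 against -1.85 for nuclear genes.

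From early to late erythroid cells, all 77 nuclear and 13 mitochondrial members were again called lower in both libraries, against backgrounds of 81.6% in control cells against 77.2% in the MYC library. Here the order of the genomes was the other way round: the medians were -2.32 for nuclear and -2.13 for mitochondrial members of the control, against -1.65 and -1.25 in the MYC library, with all-gene medians of -1.74 and -1.37. Atp5l, a small membrane subunit, had the smallest difference in both libraries (467 to 235 CPM and 506 to 343 CPM).

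Genes that serve the chain without being its subunits were described from fixed lists. Of 50 assembly factors, 48 were tested in monocytes, where 22 were called higher (20.1% of all genes) and 3 lower (35.4%), with a median of 0.30. In granulocyte progenitors 14 of 48 were higher (13.7%) and 8 lower (46.4%), with a median of 0.14. Sdhaf1, which assists the iron-sulfur subunit of complex II, had 11.9 and 27.9 CPM in monocytes, and Pet100, an assembly factor of complex IV, was the lowest of the list there (155 and 105 CPM) and in granulocyte progenitors (198 and 107 CPM). Of the 21 genes for transcription, replication and translation of the mitochondrial genome, 3 of 20 tested were higher (13.7%) and 6 lower (46.4%) in granulocyte progenitors, with a median of -0.18 against -0.27 for all genes. In monocytes 4 of 21 were higher (20.1%) and 2 lower (35.4%), with a median of 0.09. The share called higher was thus near that of all genes in both. Polg, the mitochondrial DNA polymerase, had 47.8 and 31.6 CPM in granulocyte progenitors, and Tsfm, a translation elongation factor, 32.6 and 46.3 CPM. Of the 6 nuclear regulators of respiratory genes 3 to 5 were tested in each larger class and none was called higher, where 13.7% to 22.7% of all genes were. Nrf1 had 36.1 and 21.7 CPM in granulocyte progenitors and 37.2 and 22.2 CPM in mature neutrophils. Cyc1, the cytochrome c1 of complex III that the symbol rule misses, had 77.7 and 133 CPM in monocytes.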

How the data were processed

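The deposited files hold raw UMI counts for each gene in each barcode, and per the file headers the authors made these counts with Cell Ranger 6.0.0; the submitters' processing notes name Cell Ranger 6.0, Seurat, GRCm38 and mm10. The 3′ counts are not scaled to length. Gene positions came from GENCODE vM21 (GRCm38), which matched 97 of 97 members, and promoters from RefSeq tables.

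Cells were kept with at least 500 UMIs, 200 genes and under 10% mitochondrial UMIs. Scrublet's automatic threshold failed (558 calls in the control, 0 in the MYC library), so a score of 0.25, set after seeing the data, removed 318 of 15461 and 211 of 12896 cells. The libraries were clustered together in scanpy 1.11.5 (Python 3.11.15) with 2000 variable genes, 30 principal components, 15 neighbours and Leiden resolution 1, without the members, all listed genes and ribosomal protein genes, and nothing was corrected for free RNA. Clusters took the name of the type with the highest marker score. Clusters 8 and 23, holding 2558 control cells and 2725 of the MYC library, stayed unnamed because their median UMIs were under 0.2 of the library's, a rule set after seeing the data. T and NK cells shared a cluster, and cluster 11 is called MHC class II-high.

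UMIs were summed per class and library and given as CPM. Intervals are exact Poisson, conditional binomial or Clopper-Pearson at 95%, with these exceptions. The interval of the log2 change of the mitochondrial-to-nuclear ratio is symmetric on the log2 scale and not exact. Intervals of medians are order-statistic intervals across genes. The scripts were tested on simulated data. Genes to be named were all mitochondrial members, the nuclear members with the largest and smallest ratio per complex and larger class, the 6 with the most variable level, paralogs, and the extremes of other lists. Not all of their values are printed, for example those of Ndufa5. Ndufa11, Ndufb genes, Sdhc, Sdhd, Cox8a, the other complex V subunits and genes called alike in all 6 classes were named after their values were seen. The members and lists were chosen with earlier results of these data known. Alternatives were other filters, clusterings, denominators and fold thresholds.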

Additional observations from a re-analysis of the deposited data

Results flagged for a closer look

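The summed level of the 13 mitochondrial members was higher in the MYC library in mature neutrophils (log2 change 0.231, interval 0.22 to 0.24) and lower in the other 5 larger classes, from -0.55 in granulocyte progenitors to -0.03 in immature neutrophils. With 1 library per genotype each direction rests on 1 pair of libraries, and the difference between classes was not tested. The share was higher in each of the 3 mature neutrophil clusters: 0.80% and 1.20% in cluster 0, 0.743% and 0.959% in cluster 1, and 0.946% and 1.07% in cluster 7.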

How the results depend on the processing

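The cause of the changes below was not tested unless the setting itself shows it. Scripts recomputed the median log2 ratio of nuclear members, that of mitochondrial members, the number of nuclear members called higher and the log2 change of the mitochondrial-to-nuclear ratio in the 6 larger classes. The nuclear median stayed above 0 in all alternatives run and the change of the ratio stayed below 0 in all but 1, mature neutrophil cluster 0 alone, at 0.20. The mitochondrial medians crossed 0 in immature neutrophils (-0.25 to 0.01) and mature neutrophils (-0.004 to 0.32).

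With Leiden resolution 2, the nuclear median was 0.12 in stem or multipotent progenitors. The count called higher was 18 of 77 in stem or multipotent progenitors (15.4% of all genes). The changes of the ratio were -0.32 in stem or multipotent progenitors, -0.55 in granulocyte progenitors, -0.28 in immature neutrophils, -0.42 in monocytes and -0.55 in early erythroid cells. With Gm42418 out of the denominator, the nuclear medians were 0.17 in stem or multipotent progenitors, 0.31 in monocytes and 0.090 in early erythroid cells. The counts called higher were 22 of 78 in stem or multipotent progenitors (11.5% of all genes) and 17 of 77 in early erythroid cells (16.0%). With the 20 most abundant genes out of the denominator, the nuclear medians were 0.17 in stem or multipotent progenitors, 0.31 in monocytes and 0.10 in early erythroid cells. The counts called higher were 22 of 78 in stem or multipotent progenitors (11.4% of all genes), 37 of 78 in monocytes (13.9%) and 18 of 77 in early erythroid cells (16.2%). With median-of-ratios scaling, the nuclear medians were 0.40 in stem or multipotent progenitors, 0.37 in granulocyte progenitors, 0.50 in immature neutrophils, 0.64 in mature neutrophils and 0.58 in monocytes. The counts called higher were 43 of 77 in granulocyte progenitors (27.1% of all genes) and 57 of 77 in immature neutrophils (25.8%). With a ratio of at least 1.5, the counts called higher were 6 of 78 in stem or multipotent progenitors (5.22% of all genes), 4 of 77 in granulocyte progenitors (4.43%), 14 of 77 in immature neutrophils (7.08%), 26 of 77 in mature neutrophils (7.26%), 18 of 78 in monocytes (8.78%) and 8 of 77 in early erythroid cells (11.5%), the last a smaller share than that of all genes. With cells under 5% mitochondrial UMIs, the nuclear medians were 0.54 in mature neutrophils, 0.50 in monocytes and 0.35 in early erythroid cells. The changes of the ratio were -0.43 in stem or multipotent progenitors, -0.54 in granulocyte progenitors and -0.11 in mature neutrophils. With cells under 20% mitochondrial UMIs, the changes of the ratio were -0.41 in stem or multipotent progenitors, -0.64 in granulocyte progenitors, -0.23 in immature neutrophils, -0.38 in monocytes and -0.33 in early erythroid cells. With doublets kept, the changes of the ratio were -0.46 in stem or multipotent progenitors, -0.28 in immature neutrophils, -0.42 in monocytes and -0.55 in early erythroid cells. With cells assigned by markers alone, the changes of the ratio were -0.54 in stem or multipotent progenitors, -0.56 in granulocyte progenitors and -0.43 in monocytes. With the median over cells, the changes of the ratio were -0.50 in stem or multipotent progenitors, -0.71 in granulocyte progenitors, -0.31 in immature neutrophils, -0.040 in mature neutrophils and -0.43 in monocytes. With no mitochondrial filter, the changes of the ratio were -0.60 in granulocyte progenitors, -0.29 in mature neutrophils, -0.21 in monocytes and -0.30 in early erythroid cells. With at least 1000 UMIs and 500 genes, the changes of the ratio were -0.70 in granulocyte progenitors, -0.32 in immature neutrophils, -0.43 in monocytes and -0.49 in early erythroid cells. With Leiden resolution 0.5, the changes of the ratio were -0.54 in granulocyte progenitors, -0.20 in mature neutrophils, -0.43 in monocytes and -0.49 in early erythroid cells. With a mean of at least 100 CPM, the counts called higher were 18 of 49 in immature neutrophils (23.0% of all genes) and 18 of 30 in mature neutrophils (18.5%). With each library clustered on its own, the nuclear median was 0.64 in monocytes. The changes of the ratio were -0.28 in immature neutrophils, -0.19 in mature neutrophils, -0.37 in monocytes and -0.55 in early erythroid cells. With cluster 4 alone, the change of the ratio was -0.28 in immature neutrophils. With cluster 5 alone, the change of the ratio was -0.53 in immature neutrophils. With cluster 6 alone, the change of the ratio was -0.28 in immature neutrophils. With cluster 0 alone, the change of the ratio was 0.20 in mature neutrophils. With cluster 1 alone, the change of the ratio was -0.12 in mature neutrophils. With cluster 7 alone, the change of the ratio was -0.24 in mature neutrophils. With ribosomal protein genes out of the denominator, the nuclear medians were 0.59 in monocytes and 0.41 in early erythroid cells. With cluster 10 alone, the nuclear median was 0.58 in monocytes. With cluster 15 alone, the nuclear median was 0.32 in monocytes. The change of the ratio was -0.46 in monocytes. With the mean of each cell's CPM, the nuclear median was 0.105 in early erythroid cells, as was that of all genes, and 22 of 77 members were called higher against 35.1% of all genes. With cluster 13 alone, the nuclear median was 0.0074 in early erythroid cells. The count called higher was 15 of 77 in early erythroid cells (12.9% of all genes). The change of the ratio was -0.58 in early erythroid cells. With cluster 14 alone, the nuclear median was 0.046 in early erythroid cells. The count called higher was 17 of 77 in early erythroid cells (13.4% of all genes). The change of the ratio was -0.26 in early erythroid cells. With Leiden resolution 2, the log2 ratio of Cox6a2 in stem or multipotent progenitors was -0.57.

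Stem or multipotent progenitors gave no value with Leiden resolution 0.5, with at least 1000 UMIs and 500 genes, or with each library clustered on its own. The fold threshold and the mean level filter change counts by their own construction, since they ask for more or test fewer genes. No paired analysis was possible because each genotype has 1 library. The filter on mitochondrial UMIs, the free RNA in each class and the lack of a second library per genotype limit what these values show, and depth limits the megakaryocytes and late erythroid cells most, where 45 and 47 nuclear members could be tested. Of the alternative values of named genes, 1733 moved by less than the counting error allows and 1194 by more, and 133 of 2928 had the opposite sign, of which 1 (Cox6a2) was called higher or lower to begin with.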

Other observations

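Cells of classes too small to compare, or left unnamed, gave values of the same kind. The unnamed low-UMI cells had 3.14% mitochondrial and 1.19% nuclear member UMIs in the control (2558 cells, median 752 UMIs) and 2.68% and 1.38% in the MYC library (2725 cells, median 808 UMIs). Macrophages of the MYC library (654 cells) had 3.36% and 1.39%, a ratio of 2.41, and B progenitors of the control (512 cells) had 4.60% and 1.42%, a ratio of 3.24, which lies between mature B cells and stem or multipotent progenitors.

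Plasmacytoid dendritic cells had the widest difference in the ratio of the 15 classes, with 64 of 76 nuclear members called higher (background 30.1%) at a median log2 ratio of 0.70, from 257 control cells and 59 of the MYC library. In megakaryocytes, with 57 and 62 cells, 38 of 45 tested nuclear members were higher (background 37.7%), and their mitochondrial UMIs per nuclear member UMI went from 1.39 to 0.837 over summed UMIs, while the median over cells went from 0.444 to 1.22, so the direction depends on how the cells are summarised.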
